A study of Mus musculus with 12 samples.

Results

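The 9 genes described here encode transcription factors of the basal, or myoepithelial, layer of the mammary gland: Trp63, Snai2, Snai1, Sox9, Mef2c, Myocd, Tbx2, Twist1 and Twist2. They were taken by symbol from a table of read counts for 27179 mouse genes, in which all 9 had a row, and all 9 passed the filter on low counts that left 14903 genes for testing. That filter asked for the CPM of 10 counts in a library of median size, in at least 3 libraries. Mef2c, Myocd and Twist1 passed it only with the basal libraries and Twist2 only with the basal knockout libraries, so a difference in which those libraries are the high ones is given for these 4 as a description, outside the counts of factors read against all genes. The table covers 12 libraries from mammary epithelium of female mice. Basal control and luminal control cells came from Foxp1(fl/fl) mice, and basal knockout and luminal knockout cells came from MMTV-cre/Foxp1(fl/fl) mice, with 3 biological replicates in each of the 4 groups. All 12 libraries therefore carry the floxed Foxp1 allele, and the knockout libraries differ from the controls by a Cre transgene that is driven by the mouse mammary tumour virus promoter and acts only in cells where that promoter is active. No age is given in the labels, and neither sorting gates nor the number of mice behind a library are described there.

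The mammary epithelium has an inner luminal layer, which makes milk, and an outer basal layer, which rests on the basement membrane and contracts to eject it. p63, the product of Trp63, maintains basal cells of stratified and glandular epithelia and drives genes for keratins, integrins and laminins, while myocardin (Myocd) and Mef2c work with serum response factor, SRF, on genes of the contractile apparatus. The Snail factors Snai1 and Snai2 (Slug) and the Twist factors bind E-boxes, short DNA sites of the form CANNTG, and are known for repressing epithelial genes in epithelial-mesenchymal transition. Sox9 is a factor of mammary progenitor and luminal cells as well as of basal cells, and Tbx2 is a T-box repressor of the developing mammary gland.

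Levels below are counts per 1000000 (CPM) of a library's reads in the tested genes, with that size scaled by a TMM factor. They are given for replicates 1, 2 and 3 in that order, and group values are mean ± SD over 3 libraries. Differences are log2 folds with their standard errors (SE) from edgeR's quasi-likelihood test, and a difference was called when its Benjamini-Hochberg adjusted p, taken over the 14903 genes, was under 0.05. Library totals lay between 9769361 and 11133908 counts, apart from luminal knockout replicate 3 with 15449513. Basal control replicate 3 stood apart in contractile genes: the summed level of 17 targets of myocardin and SRF was 25291, 26210.3 and 10806 CPM in the basal controls. The labelled cell types matched their markers, since 16 of those 17 targets were higher and 13 of 15 luminal markers were lower in basal than in luminal controls. Of all genes, 16.8% were higher and 16.3% were lower. Actg2, among the 17, passed the filter only with the basal libraries. The Foxp1 gene count did not check the knockout labels: it was 221, 213 and 159.7 CPM in basal controls and 212, 193 and 284 in basal knockouts, and it rose from 82.3, 61.96 and 78.2 CPM in luminal controls to 161, 149.8 and 155 in luminal knockouts (log2 fold 1.07, SE 0.19, adjusted p = 0.0161). Reads from any exon enter that count, including exons outside the deleted part, so the affected libraries are called knockout-labelled below. The Foxp1 call was lost when luminal control replicate 2 or luminal knockout replicate 2 or 3 was left out (largest adjusted p = 0.0746).

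**Figure D1:**
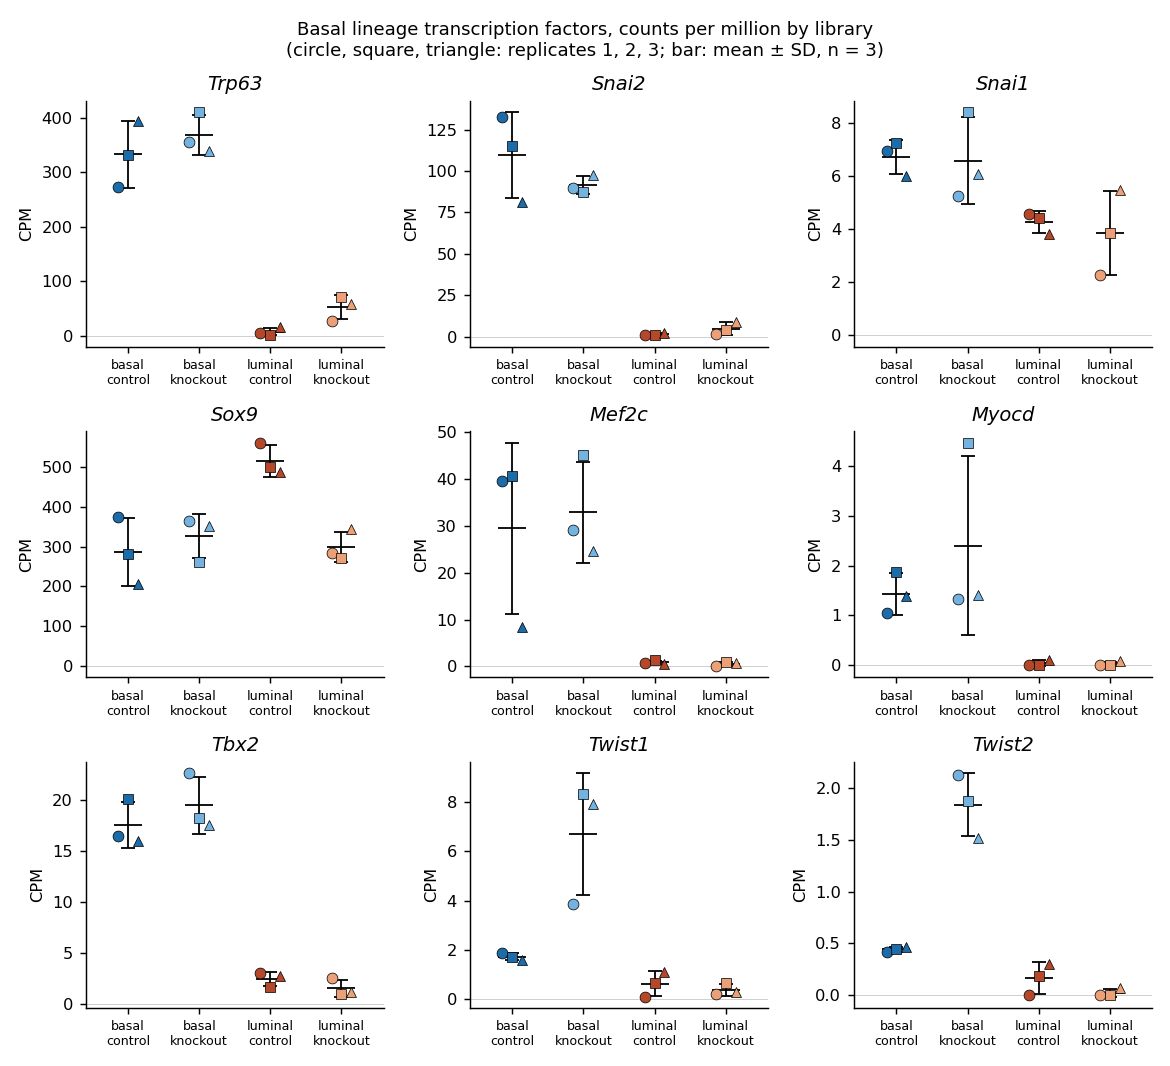
Level of each factor (CPM, linear axes starting at or just below 0) in the 12 libraries of the 4 groups, with points for replicates and bars for mean ± SD (n = 3). Trp63 and Snai2 are high in both basal groups, Sox9 is highest in luminal controls, and Twist1 and Twist2 are highest in basal knockout-labelled libraries.

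In basal control cells the 9 factors spanned a wide range of transcript levels. Per length (RPKM, that is CPM divided by the length of the gene model in kilobases), Sox9 stood at 69.2 ± 20.4, Trp63 at 54.9 ± 10.1 and Snai2 at 54.5 ± 12.9, and these 3 did not differ beyond their spread. A second tier held Tbx2 at 4.91 ± 0.637 RPKM, Mef2c at 4.49 ± 2.78 and Snai1 at 4.24 ± 0.406, again with overlapping libraries. Twist1 followed at 1.05 ± 0.0913 RPKM, above Twist2 at 0.336 ± 0.0183 and Myocd at 0.279 ± 0.0822, which overlapped each other. The order was different in luminal control cells, where Sox9 reached 124 ± 9.64 RPKM and each of the other 8 factors averaged under 3 RPKM, the next being Snai1 at 2.69 ± 0.255.

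Between basal and luminal controls, 4 of the 5 factors that did not pass the filter through the basal libraries alone were called, where 33.2% of all genes tested were called. Trp63, Snai2 and Tbx2 were higher in basal cells (16.8% of all genes were higher), Sox9 was lower in basal cells (16.3% of all genes were lower), and Snai1 was not called. The libraries of the 2 cell types did not overlap for any of these 5, against 44.1% of all genes. These factors were named for the basal lineage, so a higher level in basal cells is partly what placed them here, and Sox9 went against that name. In bulk libraries, a change in the number of cells of a type and a change in RNA per cell cannot be told apart.

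Trp63, on chromosome 16 (25683763 to 25892088, GRCm38), was measured at 272, 332 and 394 CPM in basal controls and 4.96, 2.03 and 15.7 in luminal controls. Every basal library exceeded every luminal one, by 44.1 times in the fit (log2 fold 5.46, SE 0.65, adjusted p = 8.05e-05). The luminal controls differed among themselves, replicate 3 being the highest and replicate 2 the lowest. The count is per gene and does not separate the long and short protein isoforms of p63.

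In the basal knockout-labelled libraries, Trp63 was at 356, 410.2 and 339 CPM and overlapped the basal controls (log2 fold 0.15, SE 0.53, adjusted p = 0.99, 95% interval of the log2 fold -1.07 to 1.36). In the luminal knockout-labelled libraries it was at 27.5, 71.8 and 58.5 CPM, and all 3 lay above all 3 luminal controls. The rise was 6.98 times (log2 fold 2.80, SE 0.58, adjusted p = 0.0253, 95% interval 1.47 to 4.14). Trp63 was the only 1 of the 9 factors called between luminal knockout-labelled and control libraries, a comparison in which 3.03% of all genes were called and 2.21% were called higher. The groups did not overlap for Trp63 and Sox9, against 25.4% of all genes. On average Trp63 went from 2.27% of its basal control level in luminal controls to 15.8% in luminal knockout-labelled libraries. The call was lost when luminal control replicate 1 or 2, or luminal knockout replicate 2 or 3, was left out (adjusted p between 0.0631 and 0.118), and when only the luminal libraries entered the fit (adjusted p = 0.11). With replicate number as a block, the rise was 2.89 on the log2 scale (adjusted p = 0.0162), and 1097 genes were called in place of 451. That block spans all 12 libraries, and the numbers were not shown to mark pairs.

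Known targets of p63 were examined beside it, as a list of 21 genes for keratins, integrins, laminins, Notch ligands and other adhesion proteins, all of which were tested. In basal against luminal controls, 19 of the 21 were higher and 0 lower, where 16.8% of all genes were higher and 16.3% were lower. In luminal knockout-labelled against control libraries, 3 of 21 rose and 0 fell, where 2.21% of all genes were called higher. Of the 21, 20 had a positive log2 fold, with a median of 0.68 where the median of all genes was -0.03. The list was chosen with earlier results of these data known. The 3 that rose were Cdh3, Jag1 and Col17a1, and 5 of the 21 rose with the replicate block, with DESeq2 or without luminal control replicate 3. Only 1 rose when the luminal libraries were fitted alone, or without luminal control replicate 1 or 2 or luminal knockout replicate 2 or 3. In basal knockout-labelled against control libraries, 0 of 21 were called and the median was -0.05.

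Cdh3 encodes P-cadherin, the cadherin of the basal layer. It was at 5.15, 2.96 and 8.75 CPM in luminal controls and 21.8, 35.8 and 71.003 in luminal knockout-labelled libraries (log2 fold 2.94, SE 0.44, adjusted p = 0.00752), without overlap. Its call held without each library in turn, and was lost only when the luminal libraries were fitted alone (adjusted p = 0.0565). In basal libraries Cdh3 was at 291, 300.4 and 251 CPM in controls and 327, 342 and 391 in knockout-labelled libraries. Over the 12 libraries Cdh3 was the gene whose level was most like that of Trp63, by Pearson correlation of log2 CPM (0.985), followed by Prnp (0.976) and Trim29 (0.973). These values describe libraries of 2 cell types, and any gene that is high in basal cells tends to score well.

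Jag1, a Notch ligand, was at 30.04, 28.1 and 42.8 CPM in luminal controls and 81.3, 101 and 115 in luminal knockout-labelled libraries (log2 fold 1.56, SE 0.30, adjusted p = 0.0193), again without overlap. Its call was lost without the same 4 luminal libraries as that of Trp63 (largest adjusted p = 0.0952). Col17a1, the hemidesmosomal collagen XVII, was at 12.8, 7.86 and 17.5 CPM in luminal controls and 17.5, 46.2 and 88.7 in luminal knockout-labelled libraries (log2 fold 1.999, SE 0.47, adjusted p = 0.0466). Its groups overlapped, since knockout replicate 1 was no higher than control replicate 3, and the call was lost without any of 9 of the 12 libraries (largest adjusted p = 0.175).

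Targets of myocardin and SRF, the genes of the contractile apparatus, also mark the basal layer. In luminal knockout-labelled against control libraries, 0 of 17 were called in either direction and the median log2 fold was -0.19. At an unadjusted p under 0.05 were Tagln, the actin-binding transgelin (log2 fold -1.15, SE 0.44, adjusted p = 0.196), and Smtn, smoothelin (log2 fold 0.76, SE 0.29, adjusted p = 0.202). Expressed as a percentage of the basal control mean, the median contractile gene stood at 2.31, 3.68 and 2.64% in the luminal controls and at 1.904, 3.702 and 2.52% in the luminal knockout-labelled libraries. The same medians over the 21 p63 targets were 14.5, 10.6 and 16.5% and 22.1, 27.4 and 52.01%. The p63 medians of the luminal knockout-labelled libraries all lay above those of the luminal controls. The contractile ranges overlapped. The summed contractile level was 2383, 1954 and 3289 CPM in luminal controls and 2425, 2017 and 3320.4 in luminal knockout-labelled libraries. The part of a different share of basal cells in the level of Trp63 was not tested.

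**Figure D2:**
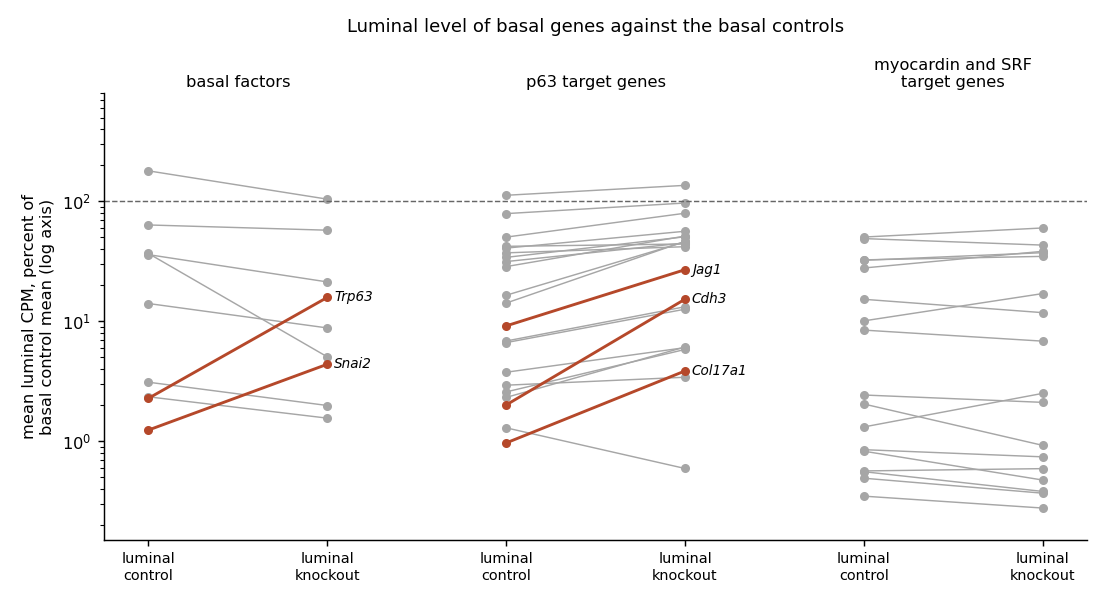
Mean CPM of each gene in luminal control and luminal knockout-labelled libraries as a percentage of its mean in basal controls (log axis; dashed line, the basal control level; 1 line per gene; n = 3 libraries per group). Named lines are Trp63, Snai2 and the 3 p63 targets that rose, and 17 contractile targets are on the right. Trp63 goes from 2.27% to 15.8%, and Cdh3 from 2.001% to 15.3%.

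Snai2, on chromosome 16 (14705852 to 14709395), was at 133, 115 and 81.5 CPM in basal controls and 0.936, 1.02 and 2.11 in luminal controls, a difference without overlap (log2 fold 6.34, SE 0.58, adjusted p = 1.67e-05). In basal knockout-labelled libraries it was at 89.9, 87.5 and 97.9 CPM, within the range of the basal controls (log2 fold -0.26, SE 0.44, adjusted p = 0.984).

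In luminal knockout-labelled libraries Snai2 was at 1.496, 4.03 and 8.88 CPM. Replicates 2 and 3 exceeded all luminal controls and replicate 1 did not. The difference was not called (log2 fold 1.85, SE 0.54, adjusted p = 0.0924, 95% interval 0.61 to 3.09). DESeq2 called it (adjusted p = 0.0119), as did the main test without luminal knockout replicate 1 (adjusted p = 0.0193). Snai2 averaged 1.24% of its basal control level in luminal controls and 4.38% in luminal knockout-labelled libraries. The genes most like Snai2 in level were Col17a1 (0.995), Lamb3 (0.991), a chain of laminin-332, and Ism1 (0.990).

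Snai1, on chromosome 2 (167538195 to 167542814), was called in none of the comparisons over all 12 libraries. It was at 6.95, 7.24 and 6.004 CPM in basal controls, 5.27, 8.42 and 6.08 in basal knockout-labelled, 4.58, 4.44 and 3.82 in luminal control and 2.29, 3.85 and 5.47 in luminal knockout-labelled libraries. The basal controls lay above the luminal controls without overlap, but the difference was not called (log2 fold 0.65, SE 0.32, adjusted p = 0.145). The basal and luminal knockout-labelled libraries overlapped (log2 fold 0.76, SE 0.32, adjusted p = 0.0813), and that difference was called without luminal knockout replicate 3 (adjusted p = 0.0311). Neither knockout difference was called (in basal cells log2 fold -0.03, SE 0.32, adjusted p = 0.998; in luminal cells log2 fold -0.14, SE 0.32, adjusted p = 0.882). Snai1 is the Snail gene for which the promoter sequence was at hand. Its 250 bases before the RefSeq start (GRCm38.p6, chr2:167537945-167538194, plus strand) hold 1 E-box, printed in capitals, 126 bases before the start, and it is shown because that E-box has the form that Snail and Zeb factors bind (CAGGTG, read here from the other strand).
Snai1: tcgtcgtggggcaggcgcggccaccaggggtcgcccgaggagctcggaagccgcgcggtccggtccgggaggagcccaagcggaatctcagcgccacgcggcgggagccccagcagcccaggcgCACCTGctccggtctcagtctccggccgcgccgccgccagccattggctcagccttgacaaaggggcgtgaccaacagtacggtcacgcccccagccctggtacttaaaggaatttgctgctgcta
A CAGGTG on either strand was found in 17.2% of 32841 RefSeq promoter windows of the same length, and an E-box of any CANNTG form, which includes CAGGTG, in 66.2%.

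Epithelial genes that Snail, Zeb and Twist factors are known to repress were taken as a list of 13, with cadherin, claudin and tight junction genes. In basal against luminal controls 11 of 13 were lower and 0 higher, where 16.3% of all genes were lower. Examples are the claudin Cldn3 (log2 fold -5.09, SE 0.31, adjusted p = 1.91e-06) and the junction gene Tjp3 (log2 fold -4.57, SE 0.55, adjusted p = 9.29e-05). Between knockout-labelled and control libraries 0 of 13 were called in basal cells, where the median was 0.47, and 0 of 13 in luminal cells, where it was -0.01. All 13 had a positive log2 fold in basal cells; Cldn3 had the lowest p (log2 fold 0.93, SE 0.27, adjusted p = 0.186). Luminal markers summed to between 904 and 1203 CPM in basal controls and between 1356 and 1942 in basal knockout-labelled libraries, without overlap. Of the 15, 8 had a positive log2 fold with a median of 0.25, and 1 was called, the luminal factor Foxa1 (log2 fold 2.01, SE 0.29, adjusted p = 0.0107). Of all genes, 0.671% were called between these basal libraries. The part of luminal cells in the epithelial genes was not tested.

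Sox9, on chromosome 11 (112782210 to 112787757), was the only 1 of the 9 called lower in basal than in luminal controls. It was at 374, 282 and 205 CPM in basal controls and 562, 499 and 487 in luminal controls. Every luminal control exceeded every basal control (log2 fold -0.85, SE 0.23, adjusted p = 0.0145). Without luminal control replicate 1 the call was lost (adjusted p = 0.0529).

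In luminal knockout-labelled libraries Sox9 was at 283, 272 and 343 CPM, and all 3 lay below all luminal controls, as 12.3% of all genes did. The difference was not called (log2 fold -0.78, SE 0.23, adjusted p = 0.0925, 95% interval -1.31 to -0.26). DESeq2 called it (adjusted p = 0.0211), as did the main test with scaling by library size alone (adjusted p = 0.0488) or without basal control replicate 3 (adjusted p = 0.0434). In basal knockout-labelled libraries Sox9 was at 364, 262 and 352 CPM (log2 fold 0.18, SE 0.23, adjusted p = 0.977), so that basal and luminal knockout-labelled libraries overlapped (log2 fold 0.12, SE 0.23, adjusted p = 0.698). Sox10, the related factor of neural crest and mammary stem and progenitor cells, was at 215, 223 and 155 CPM in luminal controls and 91.2, 79.1 and 117 in luminal knockout-labelled libraries. Sox10 fell by 1.05 on the log2 scale (SE 0.25, adjusted p = 0.0499), a call at the threshold that was lost without any of 8 of the 12 libraries (largest adjusted p = 0.184). Among the genes most like Sox9 in level were Rpl34-ps1 (0.930) and Srrm4 (0.913).

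Myocd, Mef2c and Tbx2 had no basal library below a luminal one, in controls or in knockout-labelled libraries. Myocd, on chromosome 11 (65173608 to 65269989), encodes the SRF coactivator myocardin. It was at 1.04, 1.88 and 1.39 CPM in basal controls and 1.32, 4.48 and 1.41 in basal knockout-labelled libraries, where replicate 2 was the highest and the groups overlapped (log2 fold 0.75, SE 0.59, adjusted p = 0.911). In luminal cells 1 read was counted over the 3 controls and 1 over the 3 knockout-labelled libraries. The basal controls had 46 reads, and the ratio of basal to luminal controls was 45.7 (exact 95% counting interval 7.801 to 1843). In knockout-labelled libraries the basal reads were 76 and the ratio was 90.9 (exact 95% counting interval 15.8 to 3639). These intervals cover counting error only.

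Mef2c, a MADS-box factor of muscle, on chromosome 13 (83504017 to 83667079), was at 39.5, 40.6 and 8.41 CPM in basal controls. Replicate 3 was low, and it is the library in which the contractile targets were also low. Basal knockout-labelled libraries were at 29.2, 45.1 and 24.6 CPM (log2 fold 0.16, SE 0.54, adjusted p = 0.99), and without basal control replicate 3 the log2 fold turned to -0.28. Luminal controls were at 0.842, 1.29 and 0.603 CPM and luminal knockout-labelled libraries at 0.0997, 0.984 and 0.667 (log2 fold -0.61, SE 0.78, adjusted p = 0.751). Basal exceeded luminal without overlap both in controls (log2 fold 4.99, SE 0.69) and in knockout-labelled libraries (log2 fold 5.76, SE 0.72).

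Mef2c and Myocd are also expressed in vessels. Endothelial markers summed to between 72.5 and 179 CPM in basal controls and between 101 and 186 in luminal controls, and 0 of 10 were called higher and 1, Vwf, was called lower in basal controls. In knockout-labelled libraries they summed to between 109 and 128 CPM in basal and between 71.6 and 89.6 in luminal cells. There 7 of the 10 were higher in basal cells, for example Esam (log2 fold 2.30, SE 0.41, adjusted p = 0.00121), Vwf was lower, and the median log2 fold was 2.15. Pericyte markers summed to between 64.7 and 94.96 CPM in basal controls and between 129 and 210 in luminal controls, and 4 of 6 tested were higher in basal controls, among them Rgs5 (log2 fold 2.62, SE 0.68, adjusted p = 0.0119). Notch3, which was on this list, went the other way and was lower in basal controls (log2 fold -2.31, SE 0.51, adjusted p = 0.00478). At 183, 205 and 119 CPM it made up most of the luminal sums, which thus show little of the other pericyte markers. In knockout-labelled libraries 5 of the 6 were higher in basal cells and Notch3 was again the 1 that was lower. Of all genes, 16.8% were called higher in basal cells in controls and 21.4% in knockout-labelled libraries. No marker of either list was at 0 in all libraries of a group, and their part in the levels of Mef2c and Myocd was not tested.

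Tbx2, on chromosome 11 (85832615 to 85841948), was at 16.4, 20.1 and 15.98 CPM in basal controls, 22.6, 18.2 and 17.5 in basal knockout-labelled, 2.99, 1.66 and 2.71 in luminal control and 2.49, 0.984 and 1.13 in luminal knockout-labelled libraries. Basal libraries were higher in controls (log2 fold 2.83, SE 0.35, adjusted p = 0.000106) and in knockout-labelled libraries (log2 fold 3.67, SE 0.36, adjusted p = 2.37e-05). Neither knockout difference was called (in basal cells log2 fold 0.15, SE 0.31, adjusted p = 0.986; in luminal cells log2 fold -0.69, SE 0.36, adjusted p = 0.36). The gene most like Tbx2 in level was the calcium channel gene Cacna1c (0.986), and Cald1, the contractile target caldesmon, was the third (0.983).

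The contractile targets themselves followed the cell type. In controls 16 of 17 were higher in basal cells with a median log2 fold of 5.36, and in knockout-labelled libraries all 17 were higher with a median of 5.34. Of all genes, 16.8% were higher in controls and 21.4% in knockout-labelled libraries. Actg2, among the 17, was at most 0.704 CPM in luminal controls and 0.626 in luminal knockout-labelled libraries. It therefore passed the filter only with the basal libraries, and its part in these counts is a description. Myh11, smooth muscle myosin, differed by 7.49 on the log2 scale in controls (SE 0.60) and 7.97 in knockout-labelled libraries (SE 0.61). Between basal knockout-labelled and control libraries 0 of 17 were called and the median was -0.03.

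**Figure D3:**
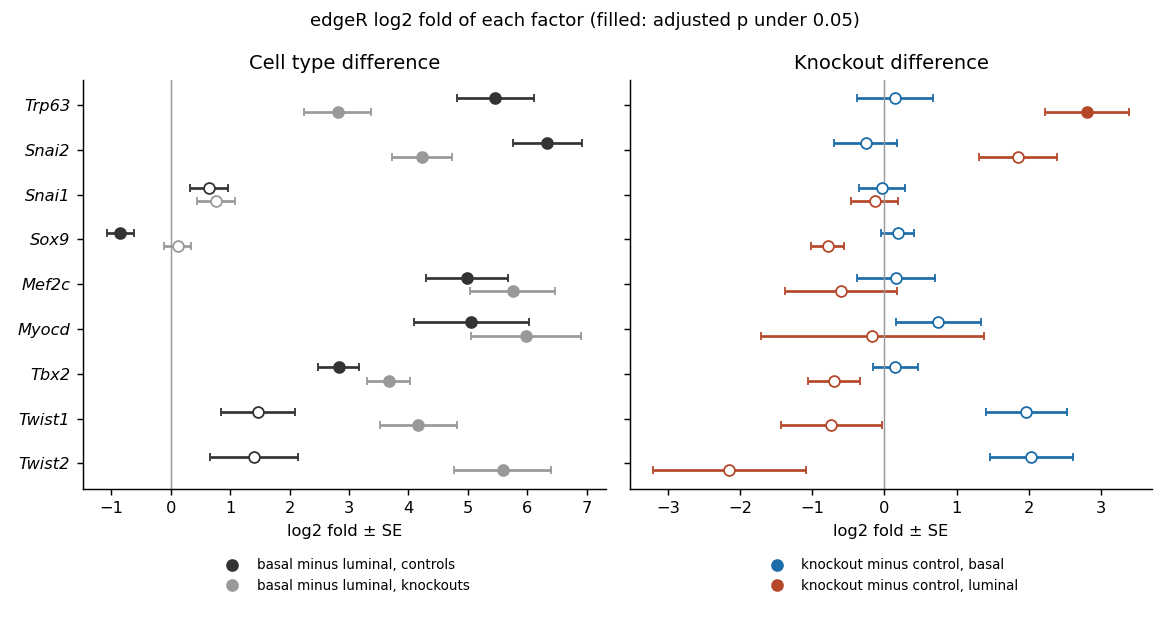
Log2 fold of each factor with its SE (edgeR, 12 libraries; filled points, adjusted p under 0.05), for basal minus luminal cells on the left, where Mef2c, Myocd, Twist1 and Twist2 are descriptions, and for knockout-labelled minus control libraries on the right. In the right panel Trp63 in luminal cells is the filled point, at 2.80, and Twist1 and Twist2 in basal cells are open at 1.96 and 2.03.

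Twist1 and Twist2 were both at their highest in the basal knockout-labelled libraries. Twist1, on chromosome 12 (33957671 to 33959831), was at 1.87, 1.697 and 1.57 CPM in basal controls and 3.85, 8.33 and 7.93 in basal knockout-labelled libraries. Twist2, on chromosome 1 (91801461 to 91848034), was at 0.415, 0.447 and 0.462 CPM and 2.13, 1.88 and 1.52 CPM, from 4, 5 and 5 reads against 21, 21 and 14. For Twist1 all 3 knockout-labelled libraries lay above all 3 controls, as 8.15% of all genes did (12.4% in either direction).

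The Twist1 difference was not called by edgeR (log2 fold 1.96, SE 0.56, adjusted p = 0.175, unadjusted p = 0.0048, 95% interval 0.66 to 3.26). Twist2 had a log2 fold of 2.03 (SE 0.58), as a description. Of the 9 factors, 0 were called by edgeR in this comparison, where 0.671% of all genes were. Of the 8 other than Twist2, 1 had an unadjusted p under 0.05, as 8.88% of all genes did. DESeq2 called 1 of the 9, Twist1 (log2 fold 1.97, adjusted p = 0.0248).

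In luminal cells both Twist genes were near the limit of counting. Twist1 was at 0.0936, 0.647 and 1.11 CPM in luminal controls and 0.199, 0.626 and 0.267 in luminal knockout-labelled libraries (log2 fold -0.73, SE 0.70, adjusted p = 0.648). Twist2 had 5 reads over the 3 luminal controls and 1 over the 3 luminal knockout-labelled libraries, a ratio of controls to knockout-labelled of 5.75 (exact 95% counting interval 0.644 to 272). Basal libraries exceeded luminal ones in the controls for Twist1 (log2 fold 1.47, SE 0.62) and Twist2 (log2 fold 1.40, SE 0.73), and neither difference was called. Twist1 passed the filter only with the basal libraries, so its difference there is a description. Its log2 fold was 1.62 with the replicate block and lay between 0.99 and 2.21 when each library was left out. Between basal and luminal knockout-labelled libraries Twist1 had a log2 fold of 4.17 (SE 0.65), and Twist2 had 56 reads against 1, a ratio of 67.01 (exact 95% counting interval 11.5 to 2694).

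Of the 5 factors that did not pass the filter through the basal libraries alone, Trp63, Snai2 and Tbx2 were called higher in basal than in luminal knockout-labelled libraries and 0 were lower, where 40.6% of all genes were called and 21.4% were called higher. Those 3 were also the ones of the 5 whose libraries did not overlap, against 54.9% of all genes.

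Fibroblasts express both Twist genes, and fibroblast markers were higher in the same libraries. The summed level of 10 markers was 476, 464 and 603 CPM in basal controls and 2006, 2877 and 1744 in basal knockout-labelled libraries, without overlap. All 10 had a positive log2 fold with a median of 2.50, and 2 of the 10 were called, where 0.671% of all genes were. Pdgfra, a receptor of fibroblasts, was at 8.19, 5.54 and 12.9 CPM against 31.6, 57.5 and 52.6 (log2 fold 2.41, SE 0.36, adjusted p = 0.0138). Dpp4 was at 1.14, 1.52 and 4.16 CPM against 10.9, 25.4 and 13.1 (log2 fold 2.85, SE 0.53, adjusted p = 0.0395). The Pdgfra call was lost without basal control replicate 1 or 2 or basal knockout replicate 2 or 3 (largest adjusted p = 0.104), and the Dpp4 call without any of 9 of the 12 libraries (largest adjusted p = 0.197). DESeq2 called 5 of the 10, and the fit of basal libraries alone 8. Between basal and luminal controls, Dcn was called higher in basal cells and Dpp4 lower, and the other markers were not called. Of all genes, 16.8% were higher and 16.3% were lower. Dpp4 had a log2 fold of -1.97 there (SE 0.53, adjusted p = 0.0137), without overlap. That call was lost without any of 3 of the 12 libraries (largest adjusted p = 0.07). The part of luminal cells in the rise of Dpp4 was not tested. No fibroblast marker was at 0 in all libraries of a group. The genes most like Twist1 in level over the 12 libraries were Serping1 (0.975), Cd34 (0.966) and Aspn (0.965), and among those most like Twist2 were Ecm2 (0.972) and Rnd1 (0.971). Whether the fibroblast markers account for the level of Twist1 or Twist2 was not tested.

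**Figure D4:**
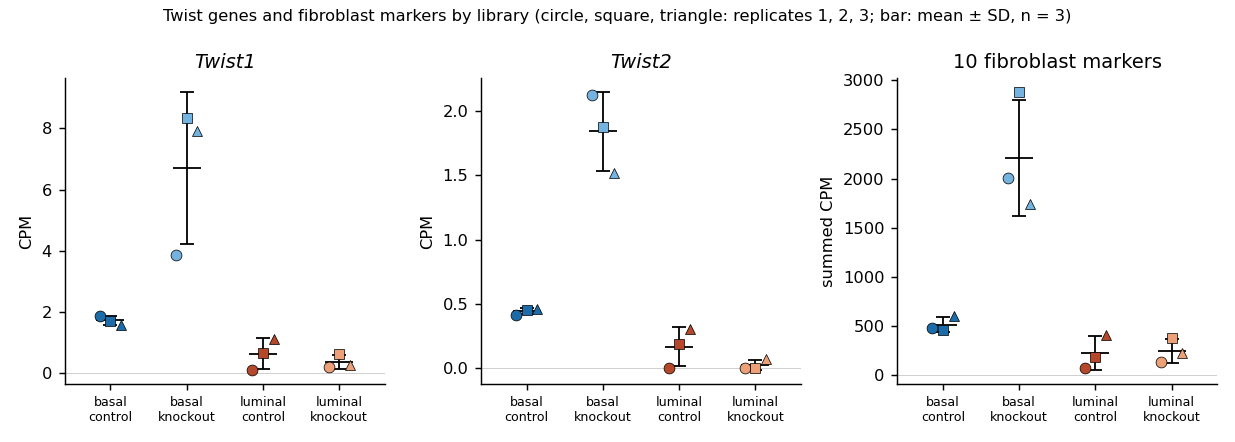
Twist1 and Twist2 (CPM) and the summed CPM of 10 fibroblast markers in the 12 libraries, with points for replicates and bars for mean ± SD (n = 3 per group). In all 3 panels the basal knockout-labelled libraries lie above the other 9 libraries; the marker sum is between 1744 and 2877 CPM there and at most 603 CPM elsewhere.

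Promoter sequences were at hand for both Twist genes and are shown because their levels moved alike over the libraries (Pearson correlation of log2 CPM 0.948 over 12 libraries, and 0.593 for deviations from the group means). Each line gives the 250 bases before the RefSeq start on the plus strand (GRCm38.p6): chr12:33957421-33957670 for Twist1 and chr1:91801211-91801460 for Twist2. Neither holds an E-box, so there are no capitals.
Twist1: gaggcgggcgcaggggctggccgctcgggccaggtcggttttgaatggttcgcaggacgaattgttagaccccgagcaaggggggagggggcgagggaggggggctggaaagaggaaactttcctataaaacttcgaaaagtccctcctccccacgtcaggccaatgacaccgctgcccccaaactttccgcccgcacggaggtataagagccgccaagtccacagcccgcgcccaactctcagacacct
Twist2: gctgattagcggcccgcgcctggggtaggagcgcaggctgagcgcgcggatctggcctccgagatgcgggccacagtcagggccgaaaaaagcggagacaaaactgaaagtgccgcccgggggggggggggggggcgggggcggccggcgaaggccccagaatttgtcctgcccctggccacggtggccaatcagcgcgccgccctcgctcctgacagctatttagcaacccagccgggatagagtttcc
The forkhead motif TGTTTAC, the form that Foxp factors are known to bind, was searched on both strands and was in neither window, nor in that of Snai1 or in the 3 of Mef2c. It was in 3.17% of the 32841 windows. RefSeq promoter windows were matched for 4 of the 9 factors, Snai1, Mef2c, Twist1 and Twist2.

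Mesenchymal genes of epithelial-mesenchymal transition, a list of 9, were also counted. In basal against luminal cells 6 of 9 were higher in controls and 9 of 9 in knockout-labelled libraries, where 16.8% and 21.4% of all genes were higher. In basal knockout-labelled against control libraries 0 of 9 were called and the median was 0.95. Fn1, fibronectin, had the lowest p there, at 52.6, 41.2 and 76.9 CPM in controls and 235, 409.6 and 219.7 in knockout-labelled libraries (log2 fold 2.34, SE 0.69, adjusted p = 0.186).

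In luminal cells, where 3.03% of all genes were called, 1 of the 9 mesenchymal genes was called, Cdh2, which encodes N-cadherin. It was at 0.187, 0.555 and 0.302 CPM in luminal controls and 1.296, 2.595 and 2.002 in luminal knockout-labelled libraries (log2 fold 2.46, SE 0.50, adjusted p = 0.0236). In basal cells it was at 14.002, 11.7 and 8.96 CPM in controls and 2.84, 6.09 and 6.63 in knockout-labelled libraries, where all 3 lay below all controls. The luminal call was lost without the same 4 luminal libraries as that of Trp63 (largest adjusted p = 0.0913).

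Relatives and partners of the 9 factors, 27 genes of which 20 were tested, included the other p53 family genes, SRF and its coactivators, the E proteins and the Id inhibitors. In basal against luminal controls 9 were higher and 2 lower, where 16.8% of all genes were higher and 16.3% were lower. Id4, an inhibitor of basic helix-loop-helix factors, had the lowest p (log2 fold 5.33, SE 0.29, adjusted p = 1.62e-06). Trp73, the p63 relative, is among the 9 but passed the filter only with the basal libraries. It had 250 reads over the basal controls and 1 over the luminal controls. Mkl1, another SRF coactivator, was higher by 1.23 on the log2 scale (SE 0.18, adjusted p = 0.000332). In basal knockout-labelled libraries 1 of 20 rose and 0 fell, where 0.671% of all genes were called. That gene was Id3, which inhibits the partners that Twist factors need to bind DNA. It was at 125, 79.5 and 63.5 CPM in basal controls and 262, 246 and 238 in basal knockout-labelled libraries (log2 fold 1.48, SE 0.29, adjusted p = 0.0493), a call near the threshold that was lost without any of 10 of the 12 libraries (largest adjusted p = 0.227). In luminal knockout-labelled libraries 0 rose and 1 fell, the Sox10 described above, where 3.03% of all genes were called. Id3 was not called there, but its libraries, at 72.2 to 123 CPM, lay above the luminal controls, at 37.5 to 65.97 CPM. Luminal groups that did not overlap, whichever was higher, were found for 25.4% of all genes. The knockout-labelled libraries were the lower ones for 12.3% of all genes.

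The difference between the basal and the luminal knockout effect was tested for each factor, as basal effect minus luminal effect. Of the 9 factors 0 were called by edgeR, where 0.275% of all genes were. Trp63, Snai2 and Sox9 had an unadjusted p under 0.05, as 9.84% of all genes did, and Snai1 and Tbx2 did not. Trp63 had a difference of -2.66 (SE 0.77, unadjusted p = 0.00522, adjusted p = 0.204), and Snai2 of -2.11 (SE 0.69, adjusted p = 0.283). Sox9 had a difference of 0.97 (SE 0.32, adjusted p = 0.284). Twist1, which passed the filter only with the basal libraries, had 2.70 as a description (SE 0.90, adjusted p = 0.285). The fitted value for Twist2 was 4.18 (SE 1.22), with 1 read in the luminal knockout-labelled libraries. Snai1, Mef2c, Myocd and Tbx2 had adjusted p between 0.646 and 0.984. DESeq2 called 1 of the 9, Trp63 (adjusted p = 0.0356), as did the main test without luminal control replicate 3 (adjusted p = 0.0262). So the luminal rise of Trp63 was not shown to differ from its basal effect by the main test.

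The 9 factors were also compared with each other. Trp63 and Snai2 correlated in level over the 12 libraries (Pearson 0.938), as did Mef2c with Myocd (0.935) and Myocd with Tbx2 (0.930). Sox9 had a negative correlation with each of the other 8, from -0.201 with Twist2 to -0.718 with Trp63. These are descriptions over 12 libraries that share 2 cell types. Over deviations from the group means the same pairs had 0.568 for Trp63 with Snai2, 0.184 for Mef2c with Myocd and -0.032 for Myocd with Tbx2.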

How the data were processed

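The authors deposited whole-number read counts per gene for 12 libraries, without normalization, per the file headers. Total RNA (RNeasy) was made into TruSeq RNA v2 libraries for a HiSeq 2000, per the labels' protocols, with CASAVA 1.8.2, featureCounts and mm10 listed by the submitters' processing notes. An aligner is not given in the sources used here, and neither is the annotation.

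Counts were tested with edgeR 4.0.16 (R 4.3.3; TMM, filterByExpr, robust quasi-likelihood F test, 4 group means over 12 libraries, 8 residual degrees of freedom, checked on simulated data). CPM uses TMM library sizes, and RPKM the deposited gene lengths. SE is the log2 fold divided by the square root of F. Correlations used a prior count of 2 and genes with mean log2 CPM of at least 1. Positions and promoters are from RefSeq (GRCm38.p6, the mm10 assembly). The 9 members and 12 other gene lists were chosen with earlier results of these data known. Per list and comparison, up to 4 called genes with the lowest p, or up to 2 where none was called, could be named. Some genes that this rule or the likeness to a member picked are not reported here.

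Same-numbered libraries deviated together between luminal knockout-labelled and control libraries (r 0.36, 0.30 and 0.53) and between basal and luminal controls (0.31, 0.42 and 0.47). Between basal and luminal knockout-labelled libraries the values were 0.087, 0.416 and 0.420. Libraries of different numbers were not compared, so these values do not establish pairs, and the block was used only as an alternative. Alternatives used DESeq2 1.42.0, limma 3.58.1 (voom), other scalings and filters, fewer groups, the block and each library left out. Strand use in counting is not given, so reads of overlapping antisense genes cannot be told apart.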

Additional observations from a re-analysis of the deposited data

Results flagged for a closer look

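Cdh2, the N-cadherin gene, differed between basal and luminal cells in its knockout effect, by the test of that difference: basal effect minus luminal effect was -3.61 on the log2 scale (SE 0.64, adjusted p = 0.0474 by edgeR over all genes tested). Of all genes, 0.275% were called in that test. Cdh2 was higher in 3 of 3 luminal knockout-labelled libraries and lower in 3 of 3 basal ones than in any control of the same cell type. Its luminal side rests on 11 reads over the 3 controls and 72 over the 3 knockout-labelled libraries. The call was lost without any of 10 of the 12 libraries (largest adjusted p = 0.115), with limma-voom (0.085) and with scaling by library size alone (0.0504).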

How the results depend on the processing

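With 3 libraries a group and a common coefficient of variation of 32.6%, calls near the threshold moved with the settings, and the low counts of Myocd, Twist1 and Twist2 limit what their folds can show. Of 931 values of single factors under the alternatives, 0 of those called in the main test turned in direction. The number of the 9 factors called rose from 0 to 1 in basal knockout-labelled against control libraries with DESeq2. In luminal cells it went from 1 to 3 with DESeq2, 2 with library size alone and 0 with only the 2 groups compared, and lay between 0 and 2 when each library was left out. For the difference of effects it was 1 with DESeq2 and between 0 and 1 without each library. For basal against luminal cells no such number is given, because Mef2c, Myocd, Twist1 and Twist2 passed the filter only through basal libraries. Of the other factors, Trp63, Snai2 and Tbx2 stayed called without each library, in controls and in knockout-labelled libraries. Sox9 lost its call in controls without luminal control replicate 1. Snai1 gained a call in knockout-labelled libraries without luminal knockout replicate 3.

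Over all genes, the 100 calls of the basal comparison became 417 with DESeq2, 59 with library size alone, 151 with only the 2 groups and 236 with the replicate block, and 17 to 142 without each library. The 451 of the luminal comparison became 1089 with DESeq2, 199 with only the 2 groups, 1097 with the replicate block and 127 to 716 without each library. The 41 of the difference of effects became 354 with DESeq2, 22 with limma-voom, 106 with the replicate block and 10 to 86 without each library. Basal against luminal calls were 3533 to 5211 in controls and 4765 to 6720 in knockout-labelled libraries without each library. With scaling by library size alone the split of basal against luminal knockout calls went from 3184 higher and 2860 lower to 2796 and 3076.

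The block changed no call of a factor other than Twist1 between basal and luminal controls, a difference given above as a description. Same-numbered basal knockout and control libraries had correlations of -0.087, 0.358 and 0.130, so that block joins libraries by number only. The log2 fold of Sox9 between basal and luminal knockout-labelled libraries turned to -0.00069 with library size alone. When each library was left out, log2 folds that were not called turned sign; the cause was not tested. Their ranges were -0.28 to 0.46 for Mef2c, -0.073 to 1.03 for Myocd, -0.24 to 0.10 for Snai1, -0.00798 to 0.404 for Sox9 and -0.0012 to 0.29 for Trp63 in basal cells. In luminal cells they were -1.87 to 1.75 for Myocd, -0.48 to 0.12 for Snai1 and -1.25 to 0.41 for Cldn1, and for the difference of effects -1.01 to 2.62 for Myocd and -0.15 to 0.45 for Snai1.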
